A study of Mus musculus with 12 samples.

Results

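Histone demethylases of the Kdm families, zinc-dependent histone deacetylases (HDACs) and sirtuins were followed by RNA-seq in 3T3-L1 adipocytes in which the DNA methyltransferase Dnmt3a was raised or lowered. The genes were taken by symbol, as every annotated feature whose symbol opens with Kdm, Hdac or Sirt and a number, leaving out Kdm5c, Kdm5d and Kdm6a, with at least 10 counts in at least 3 of the 12 libraries. Of the 32 features that matched, 2 were left out by name and 1, a second Hdac9 feature with 1 count in each of 2 libraries, for low counts. The remaining 29 of 27473 features were 12 demethylases, 11 HDACs and 6 sirtuins. Kdm1a and Sirt3 were not analysed here, because no feature carried those symbols.

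3T3-L1 is a single mouse cell line of preadipocytes that store lipid after a hormone cocktail of dexamethasone, IBMX and insulin. All 4 groups held cells of this line that were differentiated in the same way, received lentivirus on day 8 as mature adipocytes and were harvested 4 days after transduction. The GFP group received GFP in the pCDH vector, the Dnmt3a group received Dnmt3a in pCDH, the shScr group received a scrambled short hairpin, and the shDnmt3a group received a hairpin against Dnmt3a. Each group had 3 libraries, described as biological triplicates; the labels do not tie them to separate cultures, and the spread behind each p-value may therefore be technical. The comparisons ask which genes change when Dnmt3a is overexpressed (Dnmt3a against GFP) and when it is knocked down (shDnmt3a against shScr). The sources used here do not name the hairpin sequence of the knock-down libraries.

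Histone demethylases remove methyl groups from lysines of the histone tails: most of them are JmjC enzymes that use oxygen, iron and 2-oxoglutarate, and Kdm1b uses FAD. HDACs remove acetyl groups and mostly work inside corepressor complexes, with Hdac3 the catalytic subunit of the NCoR/SMRT complex that nuclear receptors such as PPARγ meet in fat cells. Sirtuins are deacylases that consume NAD and are divided by their place in the cell into nuclear, cytoplasmic and mitochondrial members.

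Totals ran from 29084732 to 47341091 counts per library, and levels are given in CPM (the counts-per-million unit, after TMM scaling of the library sizes). Dnmt3a itself stood at 93.5 ± 2.96 CPM (SD, n = 3) in GFP, 2750 ± 23.9 in Dnmt3a, 82.0 ± 3.96 in shScr and 39.9 ± 0.901 in shDnmt3a, where the counts of the transgene and the cell's own gene are not separable. The sources used here do not name the strand setting of the counting, so reads from a gene and an antisense partner cannot be told apart. Of the adipocyte markers, Adipoq averaged between 1746 and 2379 CPM over the groups, while Lep averaged between 0.293 and 0.462 CPM. Summed over 9 adipocyte markers, the level was 18146 to 19101 CPM in GFP, 22427 to 23126 in Dnmt3a, 14653 to 15103 in shScr and 14402 to 14788 in shDnmt3a. Summed over 8 preadipocyte and fibroblast markers, it was 668 to 733, 598 to 611, 765 to 835 and 680.1 to 761.8 CPM in the same order. Summed over 4 markers of dividing cells, it was 63.8 to 64.7, 42.0 to 43.9, 31.5 to 36.6 and 33.9 to 36.6 CPM. Summed over 6 macrophage and leukocyte markers, it was 6.63 to 7.51, 8.77 to 10.8, 5.11 to 6.48 and 5.05 to 5.55 CPM. The highest of these markers was Cd68, at 4.91, 7.12, 3.69 and 2.90 CPM, and Emr1 had 0 counts in every library. These sums follow the genes with the highest levels, for adipocytes Lpl and Fabp4, with 7773 and 5060 CPM in GFP. Single markers were called by edgeR's quasi-likelihood test at an adjusted p under 0.05. Of the 9 adipocyte markers, 8 were higher and 0 lower in Dnmt3a against GFP, 3 and 3 in shDnmt3a against shScr, and 3 and 5 in shScr against GFP. For the 8 preadipocyte and fibroblast markers these counts were 1 and 3, 1 and 5, and 3 and 2. For the 4 markers of dividing cells they were 0 and 3, 1 and 1, and 0 and 4. Cdk1, at 18.2, 17.3, 16.1 and 18.7 CPM over the groups, was not called on overexpression and was higher on knock-down. For the 6 macrophage and leukocyte markers they were 1 and 0, 0 and 1, and 1 and 2, with Cd68 the 1 called in each of the first comparisons. In these bulk samples, fewer cells of a type and less RNA per cell cannot be told apart. The part of these marker levels in the results was not tested.

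Compared per length of the annotated feature, as CPM per kilobase (RPKM), the 29 genes spanned a wide range of levels. In GFP cells Hdac3 was highest with 50.8 RPKM, followed by Kdm3a with 33.3 RPKM, a demethylase of H3K9 known for its role in fat and energy metabolism. Hdac7, a class IIa HDAC with little catalytic activity of its own, stood at 27.3 RPKM. The H3K9 and H3K36 demethylases Kdm4b and Kdm4a had 24.3 and 23.6 RPKM, and the H3K36 demethylase Kdm2a had 23.5 RPKM. The class I enzymes Hdac1 and Hdac2, which share the Sin3, NuRD and CoREST complexes, had 21.6 and 22.9 RPKM, against 3.00 RPKM for Hdac8. Sirt2, the cytoplasmic sirtuin, was the highest sirtuin at 13.6 RPKM, followed by Sirt7 at 11.2, Sirt6 at 5.98, Sirt4 at 4.43, Sirt1 at 3.49 and Sirt5 at 2.49 RPKM. Hdac9, a class IIa HDAC known as a brake on adipocyte differentiation, was low at 0.908 RPKM, and Kdm4d was lowest at 0.128 RPKM. Within groups the 29 genes varied little, with a median coefficient of variation of 3.44%, and the largest, 47.2%, was that of Kdm4d in shScr.

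**Figure D1:**
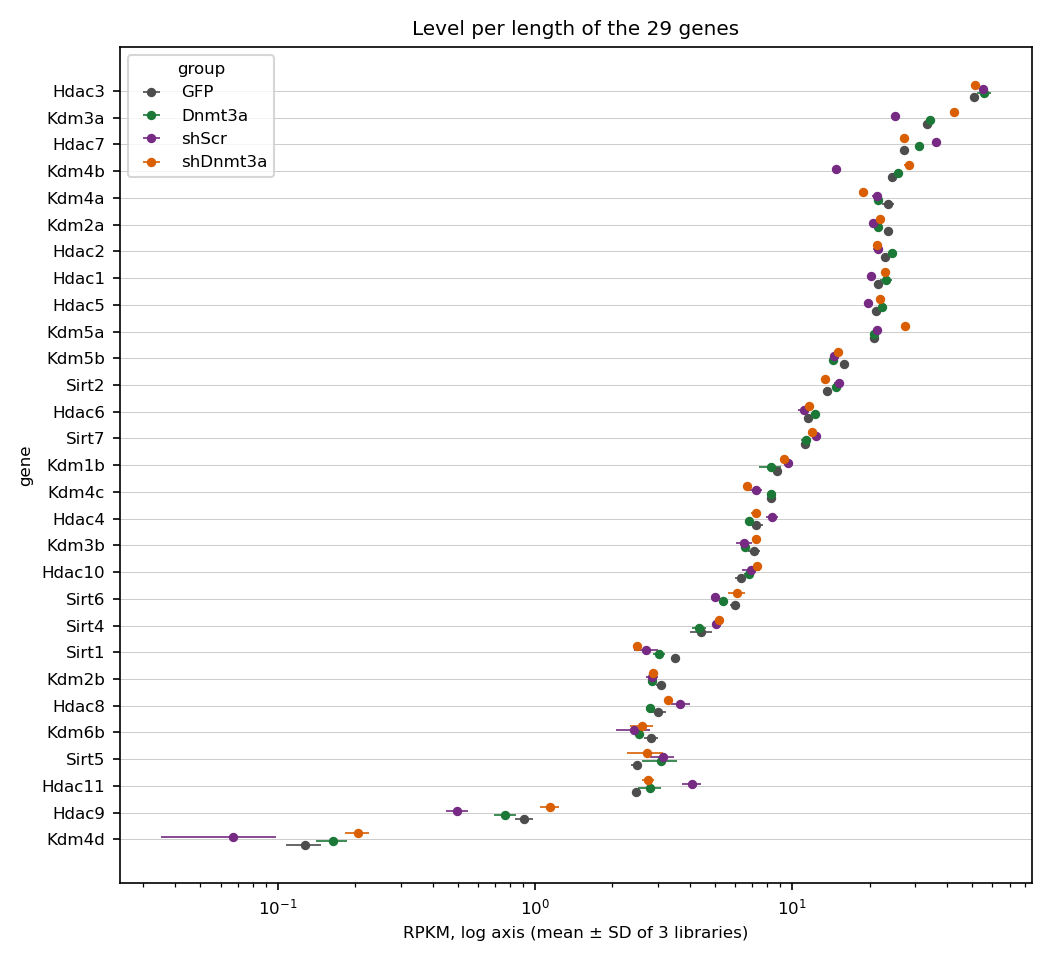
Level per length of the 29 genes in the 4 groups, on a log axis in RPKM, with points at the mean and bars at the SD of 3 libraries. Hdac3 is at the top with 50.8 RPKM in GFP and Kdm4d at the bottom with 0.128 RPKM, and the groups lie furthest apart for Kdm4d, Hdac9, Kdm4b, Kdm3a and Hdac11.

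Because Dnmt3a places methyl groups on cytosines of CG dinucleotides, the start sites of 3 of the genes that moved most on knock-down are shown, with each CG in capitals. The windows are RefSeq promoters of build GRCm38.p6, from 250 bases before to 50 bases after a transcript start, and each was placed on mm9, the build of the counts, by its single exact match. Kdm3a lies on the minus strand at chr6:71538968-71582899 of mm9, and the window of its annotated gene start, at chr6:71582862-71583161, holds 24 CG dinucleotides, against 40 and 0 in its other windows. Hdac11, on the plus strand at chr6:91106659-91124686, has 22 CG dinucleotides in its window at chr6:91106559-91106858. Hdac9, on the minus strand at chr12:34732451-35213754, has 3 in its window at chr12:35213705-35214004 and 0 in its other annotated window.
Kdm3a: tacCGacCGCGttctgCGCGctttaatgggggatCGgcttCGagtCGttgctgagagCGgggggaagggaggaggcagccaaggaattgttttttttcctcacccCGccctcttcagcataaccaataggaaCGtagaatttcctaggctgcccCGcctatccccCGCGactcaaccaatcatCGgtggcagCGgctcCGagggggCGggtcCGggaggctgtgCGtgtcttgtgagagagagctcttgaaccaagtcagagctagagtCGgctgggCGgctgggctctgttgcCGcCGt
Hdac11: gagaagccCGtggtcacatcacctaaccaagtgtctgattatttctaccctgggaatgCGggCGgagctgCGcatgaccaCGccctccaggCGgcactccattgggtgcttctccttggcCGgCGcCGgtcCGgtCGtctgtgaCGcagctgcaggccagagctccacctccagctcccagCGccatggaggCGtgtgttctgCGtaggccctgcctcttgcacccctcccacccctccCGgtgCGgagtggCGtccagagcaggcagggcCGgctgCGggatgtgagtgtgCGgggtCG
Hdac9: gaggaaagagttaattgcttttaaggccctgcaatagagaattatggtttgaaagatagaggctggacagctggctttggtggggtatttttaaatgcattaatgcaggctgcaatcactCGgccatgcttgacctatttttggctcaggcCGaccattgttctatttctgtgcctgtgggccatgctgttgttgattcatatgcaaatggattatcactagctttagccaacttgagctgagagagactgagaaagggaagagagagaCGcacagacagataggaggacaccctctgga
RefSeq windows were matched for 21 of the 29 genes, 32 windows in all, with a median of 19 CG dinucleotides against 7 in all 32851 windows of the same length. A share of 12.5% of the matched windows held at most 3 CG dinucleotides, against 31.4% of all windows. The 29 genes were kept by their counts in these libraries, while the set of all windows was not filtered by expression. The values therefore do not single out these gene families. No methylation was measured in these libraries, so the windows describe sequence only. Among the genes without a matched window were Kdm4b, Kdm5a, Kdm2a and Hdac3.

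On knock-down of Dnmt3a, 10 of the 29 genes were higher and 6 lower at an adjusted p under 0.05 (edgeR's quasi-likelihood test over all features, Benjamini-Hochberg adjustment), which is 34.5% and 20.7% of them. Over all 14115 features tested, 23.3% were called higher and 22.5% lower. The median log2 fold change was 0.04 over the 29 genes and -0.00027 over all features tested. Of the 12 demethylases, 6 were higher and 1 was lower, with the calls of Kdm2a and Kdm3b lost on leaving out single libraries. Kdm4d, also among the 6, rests on 5 to 23 counts per library. It passed the minimum of 10 counts through the groups where it was higher, so its call is no support for a rise. Against GFP in place of shScr, 3 demethylases were higher and 3 lower in shDnmt3a. Of the 11 HDACs, 3 were higher and 4 lower, and of the 6 sirtuins, 1 was higher and 1 lower. Against GFP these counts were 2 and 0 for the HDACs and 1 and 1 for the sirtuins.

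**Figure D2:**
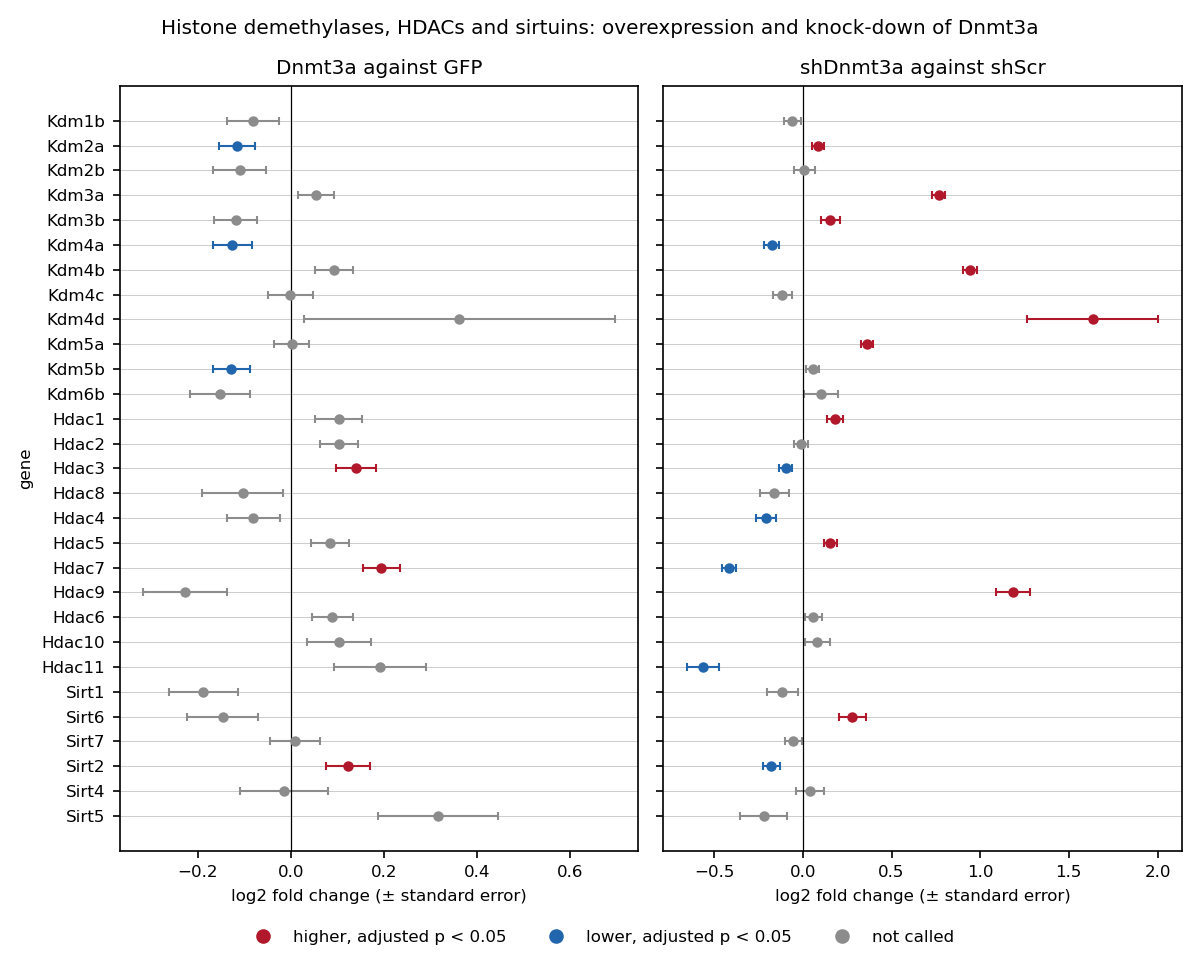
Log2 fold changes of the 29 genes with standard errors on overexpression (left) and knock-down (right) of Dnmt3a, with 3 libraries per group and colours for genes called at an adjusted p under 0.05. The horizontal axes differ: on overexpression the values lie between -0.23 and 0.36, on knock-down Kdm4b, Kdm3a, Hdac9 and Kdm4d rose by at least 0.77 and Hdac11 fell by 0.56.

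Kdm3a and Kdm4b, both H3K9 demethylases, had the smallest p-values of the 29 genes. Kdm3a was measured at 169, 161 and 165 CPM in shScr and at 276, 278 and 287 CPM in shDnmt3a, from 5088 to 11541 counts per library. It stood at 221, 216 and 220.2 CPM in GFP and at 229.9, 224 and 226 CPM in Dnmt3a. All shDnmt3a libraries lay above, and all shScr libraries below, every library of the pCDH groups, and no library of the hairpin groups overlapped. The log2 fold change on knock-down was 0.77 (SE 0.035), with an edgeR quasi-likelihood adjusted p of 1.25e-12. Kdm4b, at chr17:56465485-56542293 of mm9, was measured at 82.9, 86.7 and 82.8 CPM in shScr and at 167, 163 and 154 CPM in shDnmt3a. Its GFP libraries had 139.6, 133 and 142 CPM and its Dnmt3a libraries 142, 146 and 153 CPM. As for Kdm3a, shScr was lowest and shDnmt3a highest, with the pCDH groups between them. The pCDH groups overlapped each other for Kdm4b but not for Kdm3a. Kdm4b rose by 0.94 on the log2 scale (SE 0.039, edgeR adjusted p = 2.95e-13).

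Kdm5a, a demethylase of H3K4 that is found at active promoters, stood at close levels in the other 3 groups. Its levels were 298, 284 and 281 CPM in shScr and 366, 369 and 374 CPM in shDnmt3a. In GFP it had 281, 284 and 282 CPM and in Dnmt3a 279, 285 and 282 CPM. Only the shDnmt3a libraries stood apart, above all 9 others, and the log2 fold change on knock-down was 0.36 (SE 0.034, edgeR adjusted p = 5.19e-08). Its relative Kdm5b, also an H3K4 demethylase, had a log2 fold change of 0.06 on knock-down (edgeR adjusted p = 0.235).

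Among the other demethylases, Kdm4a, a relative of Kdm4b, was the one that fell. Its shScr libraries had 102, 109.6 and 105 CPM and its shDnmt3a libraries 94.1, 96.2 and 89.5 CPM. The groups did not overlap, and Kdm4a fell by 0.18 on the log2 scale (SE 0.041, edgeR adjusted p = 0.00151). Kdm4d rose by 1.63 (SE 0.37, edgeR adjusted p = 0.00125), from 0.143, 0.131 and 0.291 to 0.529, 0.555 and 0.648 CPM. These levels rest on 5 to 23 counts per library, the fewest of the 29 genes, and Kdm4d passed the minimum of 10 counts through the groups where it was higher. Kdm4c, with 36.9 ± 2.10 against 34.1 ± 0.759 CPM (SD, n = 3), was not called, with an edgeR adjusted p of 0.0849. Kdm3b, a relative of Kdm3a, was 46.8, 53.7 and 49.4 CPM in shScr and 56.5, 53.5 and 57.0 CPM in shDnmt3a. The groups overlapped, and its log2 fold change of 0.15 (edgeR adjusted p = 0.0205) lost its call without shScr replicate 1 or 3 or shDnmt3a replicate 1 or 3 (adjusted p from 0.0607 to 0.1).

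Kdm2a was 188, 190.2 and 191 CPM in shScr and 202, 201 and 201 CPM in shDnmt3a, so the groups did not overlap. Its rise of 0.08 on the log2 scale (SE 0.033, edgeR adjusted p = 0.0447) lost its call when any 1 of the 6 libraries was left out (adjusted p from 0.0666 to 0.126). Kdm1b, the FAD-dependent H3K4 demethylase, Kdm2b, a Polycomb-linked H3K36 demethylase, and Kdm6b, a demethylase of H3K27, were not called on knock-down.

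**Figure D3:**
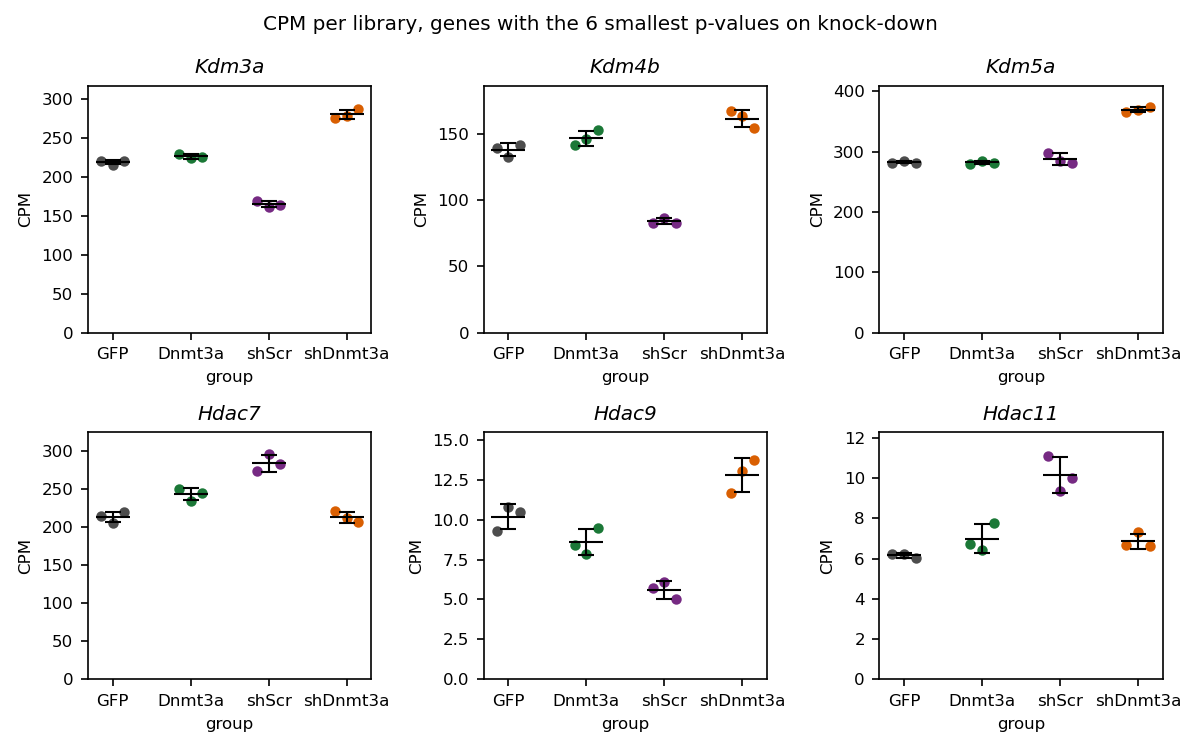
CPM of each library, 3 per group, for the 6 genes with the smallest p-values on knock-down, with a line at the mean, bars at the SD and axes from 0. For Kdm3a, Kdm4b and Hdac9 the shScr libraries are lowest and the shDnmt3a libraries highest, for Kdm5a the shDnmt3a libraries alone stand apart, and for Hdac7 and Hdac11 the shScr libraries are highest.

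The class IIa HDACs, which shuttle between nucleus and cytoplasm, did not move in 1 direction on knock-down. Hdac9 was measured at 5.70, 6.12 and 5.02 CPM in shScr and at 11.7, 13.1 and 13.8 CPM in shDnmt3a, from 155 to 542 counts per library over all groups. Its GFP libraries had 9.32, 10.8 and 10.5 CPM and its Dnmt3a libraries 8.45, 7.89 and 9.51 CPM. All shDnmt3a libraries were above and all shScr libraries below those of the other groups. The log2 fold change was 1.19 (SE 0.095, edgeR adjusted p = 4.76e-09). Hdac7, at chr15:97623095-97674933 of mm9, went the other way, from 273, 295 and 283 CPM in shScr to 221, 212 and 206 CPM in shDnmt3a. With 214, 205 and 219 CPM in GFP and 250.1, 234 and 245 CPM in Dnmt3a, the shDnmt3a libraries overlapped those of GFP, and the shScr libraries were above all others. Hdac7 fell by 0.42 on the log2 scale on knock-down (SE 0.039, edgeR adjusted p = 3.8e-08). Hdac4 fell by 0.21 (SE 0.056, edgeR adjusted p = 0.00434), from 35.8 ± 1.98 to 30.9 ± 1.28 CPM. The GFP libraries had 30.9 ± 2.17 CPM of Hdac4, and against them shDnmt3a was not called (log2 fold change 0.00, edgeR adjusted p = 0.985). Hdac5 rose by 0.16 (SE 0.038, edgeR adjusted p = 0.0021), from 90.7 ± 2.95 to 101 ± 0.621 CPM (SD, n = 3). Its GFP level was 97.0 ± 3.69 CPM, and shDnmt3a was not called against GFP (0.06, edgeR adjusted p = 0.211).

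Hdac11, the only class IV enzyme and a remover of long fatty acyl groups, fell as well. It was 11.1, 9.38 and 10.002 CPM in shScr and 6.65, 7.31 and 6.63 CPM in shDnmt3a, from 182 to 388 counts per library. In GFP it was 6.23, 6.23 and 6.03 CPM, and in Dnmt3a 6.72, 6.44 and 7.79 CPM. The shScr libraries alone stood above the rest, and the log2 fold change on knock-down was -0.56 (SE 0.090, edgeR adjusted p = 3.96e-05).

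The class I HDACs moved little. Hdac1 rose by 0.18 on the log2 scale (SE 0.046, edgeR adjusted p = 0.00317), from 40.1 ± 0.642 to 45.4 ± 0.662 CPM (SD, n = 3). Its GFP level was 42.7 ± 1.75 CPM, and shDnmt3a was not called against GFP (0.09, edgeR adjusted p = 0.132). Hdac3 was 113, 107 and 111 CPM in shScr and 101, 104 and 104 CPM in shDnmt3a. The groups did not overlap, but the log2 fold change of -0.10 (SE 0.037, edgeR adjusted p = 0.0392) was kept without shScr replicate 2 and lost its call without each of the other 5 libraries (adjusted p from 0.0586 to 0.134). Hdac2 had a log2 fold change of -0.01 (edgeR adjusted p = 0.869), and Hdac8, with -0.16, was not called either (edgeR adjusted p = 0.117). The class IIb enzymes, the tubulin deacetylase Hdac6 and the polyamine deacetylase Hdac10, were not called on knock-down.

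Sirt6, a nuclear deacetylase of H3K9, rose by 0.28 on the log2 scale (SE 0.077, edgeR adjusted p = 0.00579). Its shScr libraries had 10.5, 10.9 and 10.8 CPM and its shDnmt3a libraries 13.8, 13.2 and 11.95 CPM, with no overlap. The GFP libraries had 13.1, 12.1 and 13.1 CPM of Sirt6, and against them shDnmt3a was not called (log2 fold change 0.03, edgeR adjusted p = 0.779). Sirt2 was 50.3, 54.7 and 54.2 CPM in shScr and 46.9, 48.1 and 45.7 CPM in shDnmt3a. These groups did not overlap, and Sirt2 fell by 0.18 (SE 0.047, edgeR adjusted p = 0.00437). Sirt1, the nuclear sirtuin known to repress PPARγ, had 10.6 ± 1.14 and 9.71 ± 0.331 CPM and was not called (log2 fold change -0.12, edgeR adjusted p = 0.296). Sirt7, of the nucleolus, and the mitochondrial Sirt4 and Sirt5 were not called.

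The levels of the genes not called on knock-down are given here for shScr and shDnmt3a. The largest of their log2 fold changes in size, -0.22 for Sirt5 and -0.16 for Hdac8, were like that of Hdac4, which was called at -0.21. Among the demethylases, Kdm1b had 42.8 ± 0.919 and 41.1 ± 0.850 CPM (SD, n = 3), Kdm2b 26.9 ± 1.44 and 27.0 ± 0.964 CPM and Kdm6b 17.7 ± 2.70 and 19.03 ± 1.94 CPM. Among the HDACs, Hdac2 had 91.2 ± 4.08 and 90.6 ± 2.44 CPM, Hdac6 57.5 ± 3.02 and 59.9 ± 1.76 CPM, Hdac8 11.4 ± 0.967 and 10.1 ± 0.305 CPM and Hdac10 16.8 ± 1.36 and 17.7 ± 0.676 CPM. Among the sirtuins, Sirt4 had 9.06 ± 0.235 and 9.32 ± 0.129 CPM, Sirt5 4.39 ± 0.480 and 3.80 ± 0.604 CPM and Sirt7 36.2 ± 1.02 and 34.9 ± 0.208 CPM. Each of these differences was within the threshold of the test, which does not show that the levels are equal.

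On overexpression of Dnmt3a, 3 of the 29 genes were higher and 3 lower by the same test, 10.3% in each direction. Over all 14168 features tested, 14.3% were higher and 12.9% lower. The median log2 fold change was 0.0025 over the 29 genes and -0.0066 over all features. The genes called higher were Hdac3, Hdac7 and Sirt2, and those called lower were the demethylases Kdm2a, Kdm4a and Kdm5b. All 6 changes were smaller than 0.20 on the log2 scale.

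Hdac7, at the levels given above, rose by 0.19 on the log2 scale (SE 0.040, edgeR adjusted p = 0.000285). Its GFP and Dnmt3a libraries did not overlap, and this call was kept under every alternative run. Hdac3 was 106, 98.5 and 101 CPM in GFP and 113, 105 and 118 CPM in Dnmt3a, so that the groups overlapped. It rose by 0.14 (SE 0.043, edgeR adjusted p = 0.0131), with no call without GFP replicate 2 (adjusted p = 0.0519) or Dnmt3a replicate 3 (adjusted p = 0.135). Sirt2 was 46.4, 46.4 and 49.2 CPM in GFP and 53.3, 50.8 and 50.1 CPM in Dnmt3a, with no overlap. Its rise of 0.12 (SE 0.047, edgeR adjusted p = 0.0488) was at the edge of the threshold and lost its call without GFP replicate 1 or 2 or any of the Dnmt3a libraries (adjusted p from 0.0563 to 0.197). By DESeq2, Sirt2 was not called on overexpression.

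Kdm5b, at chr1:136456748-136529454 of mm9, was measured at 125, 118 and 123 CPM in GFP and at 111, 111 and 112 CPM in Dnmt3a. The groups did not overlap, and Kdm5b fell by 0.13 on the log2 scale (SE 0.039, edgeR adjusted p = 0.0133). Its call was lost without GFP replicate 1 or 3 or Dnmt3a replicate 1 (adjusted p from 0.0503 to 0.0693). In the hairpin groups it had 114, 114 and 108 CPM in shScr and 119, 116 and 114 CPM in shDnmt3a. Kdm4a was 123, 111 and 116 CPM in GFP and 108, 108 and 105 CPM in Dnmt3a. It fell by 0.13 (SE 0.041, edgeR adjusted p = 0.0211), also with no overlap, and was not called without GFP replicate 1 or 3 or Dnmt3a replicate 1 or 3 (adjusted p from 0.0528 to 0.148). Kdm2a was 219.6, 217 and 209.6 CPM in GFP and 201, 195 and 198 CPM in Dnmt3a, again apart. It fell by 0.12 (SE 0.039, edgeR adjusted p = 0.0226), a call lost without GFP replicate 1 or Dnmt3a replicate 2 or 3 (adjusted p from 0.0595 to 0.0916).

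**Figure D4:**
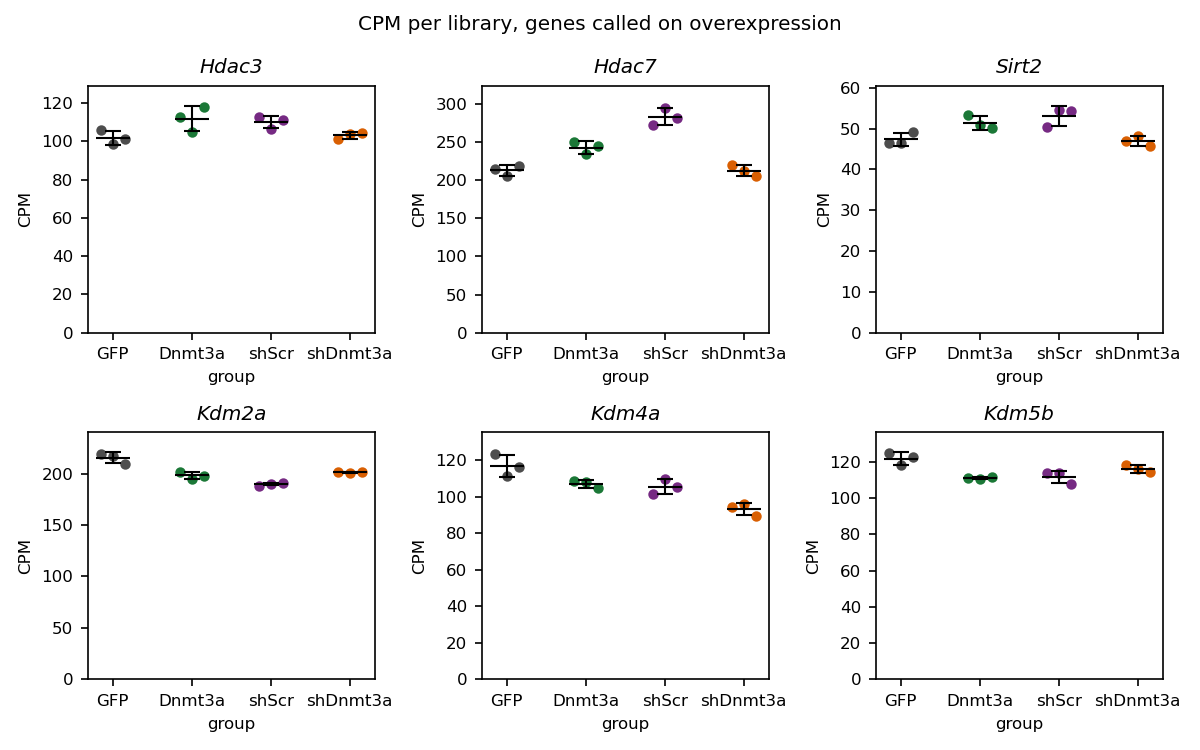
CPM of each library, 3 per group, for the 6 genes called on overexpression of Dnmt3a, with a line at the mean, bars at the SD and axes from 0. The GFP and Dnmt3a libraries lie close together in every panel, the changes being at most 0.19 on the log2 scale, and for Hdac3 they overlap.

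The 23 genes not called on overexpression included Kdm3a, Kdm4b, Kdm5a, Hdac9 and Hdac11, which were called on knock-down. Kdm3a had a log2 fold change of 0.05 (SE 0.038, edgeR adjusted p = 0.314), Kdm4b of 0.09 (SE 0.042, edgeR adjusted p = 0.0953), Kdm5a of 0.00 (SE 0.038, edgeR adjusted p = 0.973) and Hdac11 of 0.19 (SE 0.099, edgeR adjusted p = 0.156). Hdac9, with -0.23 (SE 0.090, edgeR adjusted p = 0.0565), Sirt1, with -0.19 (SE 0.075, edgeR adjusted p = 0.0583), and Kdm3b, with -0.12 (edgeR adjusted p = 0.0555), lay just beyond the threshold. The same holds for Hdac2, with 0.10 and an edgeR adjusted p of 0.0523.

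The overexpression and knock-down comparisons share no libraries. Of the 29 genes, 5 were called in both, which is 83.3% of the 6 called on overexpression and 31.2% of the 16 called on knock-down. Over the 13893 features tested in both comparisons, 2278 were called in both, 59.8% and 35.6% of the respective calls, and 58.9% of these in opposite directions. Of the 5 genes, 4 were called in opposite directions: Hdac3, Hdac7 and Sirt2 were higher in Dnmt3a than in GFP and lower in shDnmt3a than in shScr, and Kdm2a was lower in Dnmt3a and higher in shDnmt3a. Kdm4a was lower in both. These directions on knock-down hold against shScr. Against GFP, the log2 fold changes in shDnmt3a were 0.02 for Hdac3 (edgeR adjusted p = 0.775), -0.00 for Hdac7 (0.982) and -0.01 for Sirt2 (0.857), with no call, and Kdm2a was called lower, at -0.10 (0.0183). The calls of Sirt2, Hdac3 and Kdm2a on overexpression and of Hdac3 and Kdm2a on knock-down were each lost under some of the alternatives, so that Hdac7 is the one of the 4 whose calls in both comparisons were kept under all alternatives run. A further 11 genes were called on knock-down alone and 1, Kdm5b, on overexpression alone, and 12 in neither; whether the change differed between the comparisons was not tested for these.

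The scrambled hairpin and GFP controls differ in vector and insert, which cannot be told apart, and set the level from which each knock-down value is read. In shScr against GFP, from 1 fit of all 12 libraries, 9 of the 29 genes were higher and 12 lower, 31.0% and 41.4%, against 23.7% and 22.8% of the 14491 features tested. Of the 12 demethylases, 9 were lower and 1, Kdm1b, was higher. Kdm4d, among the 9, passed the minimum of 10 counts through groups where it was higher, so its call is no support for a lower level. Of the 11 HDACs, 5 were higher and 1, Hdac9, was lower. Of the 6 sirtuins, Sirt2, Sirt5 and Sirt7 were higher and Sirt1 and Sirt6 lower. The calls of Kdm3b (without GFP replicate 1 or 2 or shScr replicate 1 or 3), Kdm6b (without GFP replicate 1 or 3 or shScr replicate 1 or 3), Sirt5 (without any GFP library or shScr replicate 2) and Kdm4d (without any library but shScr replicate 3) were lost, with adjusted p from 0.0507 to 0.365. Those of Kdm4d, Kdm6b and Kdm3b were lost also in a fit of the 6 libraries alone. The calls of Hdac3 (without GFP replicate 2 or 3 or shScr replicate 1), Kdm1b (without GFP replicate 3 or shScr replicate 3), Kdm4a (without GFP replicate 1), Kdm5b (without GFP replicate 1 or shScr replicate 3) and Sirt7 (without shScr replicate 3) were lost with adjusted p from 0.0503 to 0.092. The mean level was lowest in shScr for 12 of the 29 genes, against 5 in GFP, 6 in Dnmt3a and 6 in shDnmt3a. The comparison shares the GFP libraries with the overexpression comparison and the shScr libraries with the knock-down comparison, so its values are set beside theirs without a count of shared calls.

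Between the controls, Kdm4b was lower in shScr by a log2 fold change of -0.71 (SE 0.042, edgeR adjusted p = 1.91e-14) and Kdm3a by -0.40 (SE 0.035, edgeR adjusted p = 1.03e-10). Hdac9 stood at -0.85 (SE 0.098, edgeR adjusted p = 2.87e-08), while Hdac7 was higher in shScr by 0.42 (SE 0.039, edgeR adjusted p = 4.41e-10) and Hdac11 by 0.73 (SE 0.092, edgeR adjusted p = 1.31e-07). Each of these 5 genes was also called on knock-down, in a comparison that reads from the same shScr libraries. Kdm5a, in contrast, had a log2 fold change of 0.03 between the controls (SE 0.034, edgeR adjusted p = 0.437). Sirt1 was lower in shScr, by -0.36 (SE 0.078, edgeR adjusted p = 0.000299).

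When shDnmt3a was read against GFP instead of shScr, a comparison added after the values were seen, 6 of the 29 genes were higher and 4 lower, 20.7% and 13.8%, against 23.6% and 22.8% of all features tested. It shares GFP libraries with the comparison of the controls and shDnmt3a libraries with the knock-down. Kdm5a was higher by 0.39 (SE 0.034, edgeR adjusted p = 1.24e-10), Kdm3a by 0.36 (SE 0.034, edgeR adjusted p = 8.83e-10), Kdm4b by 0.23 (SE 0.040, edgeR adjusted p = 3.41e-05) and Hdac9 by 0.33 (SE 0.087, edgeR adjusted p = 0.00213). These values are below those against shScr for Kdm3a, Kdm4b and Hdac9. Kdm4a was lower by -0.33 (SE 0.041, edgeR adjusted p = 1.52e-07), Kdm4c by -0.31 (SE 0.048, edgeR adjusted p = 3.84e-06) and Sirt1 by -0.49 (SE 0.078, edgeR adjusted p = 6.99e-06). Sirt1 had 13.7, 13.98 and 13.2 CPM in GFP, 11.1, 9.27 and 11.3 CPM in shScr and 9.35, 10.01 and 9.78 CPM in shDnmt3a, so that both hairpin groups lay below GFP and overlapped each other. Hdac7, with -0.00 (SE 0.039, edgeR adjusted p = 0.982), and Hdac11, with 0.16 (SE 0.095, edgeR adjusted p = 0.186), were not called against GFP. Also called on knock-down but not against GFP were Hdac1, Hdac3, Hdac4, Hdac5, Sirt2, Sirt6, Kdm3b and Kdm4d. The remaining calls were Hdac10 and Sirt4, higher by 0.21 and 0.23 (edgeR adjusted p = 0.0105 and 0.0253), and Kdm2a, lower by -0.10 (edgeR adjusted p = 0.0183), each lost in turn: Hdac10 without GFP replicate 3 (adjusted p = 0.0596), Sirt4 without GFP replicate 1 or 3 or shDnmt3a replicate 2 or 3 (0.0605 to 0.169) and Kdm2a without GFP replicate 1 or shDnmt3a replicate 2 (0.0583 to 0.0715). Without GFP replicate 3 the number of genes called higher was 4.

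**Figure D5:**
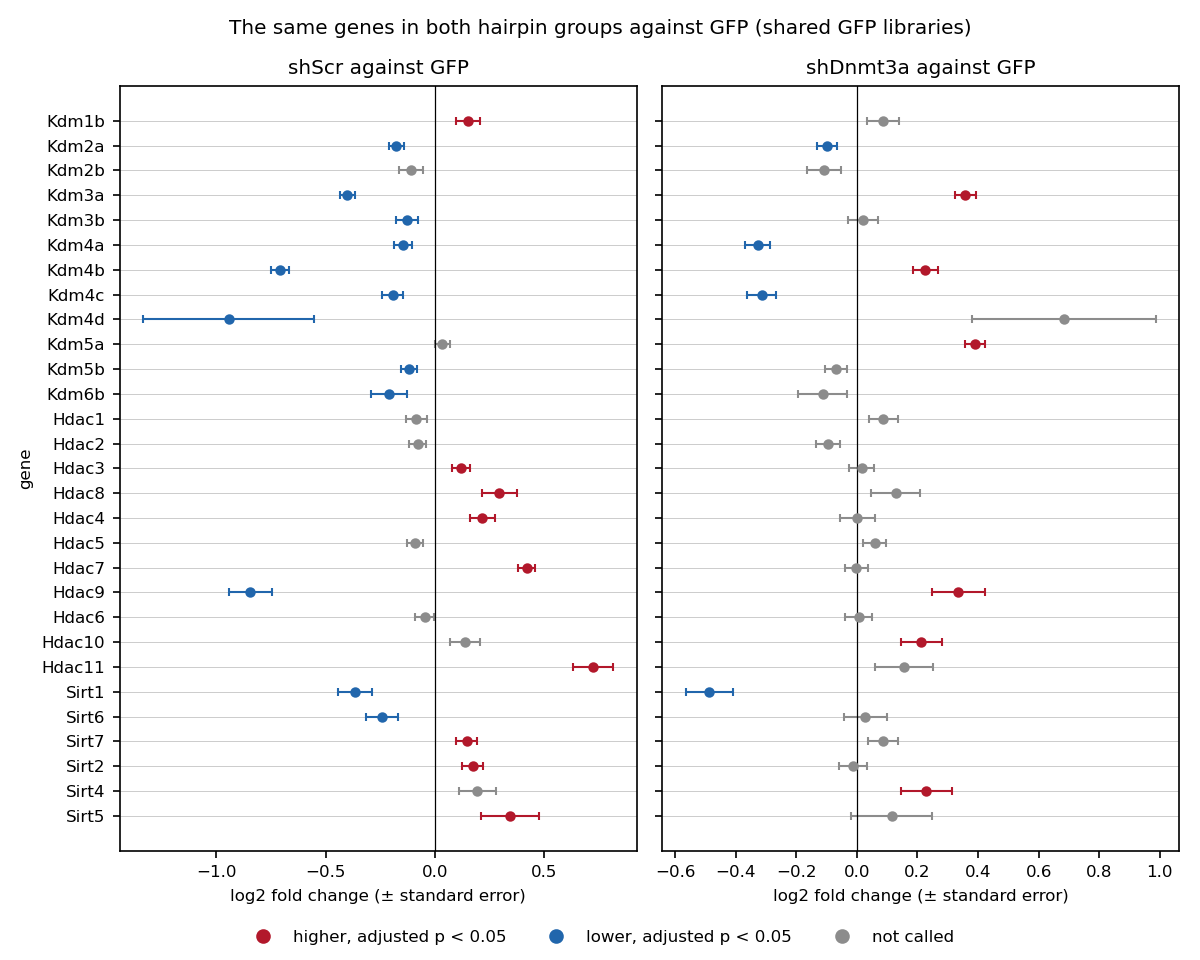
Log2 fold changes of the 29 genes with standard errors for the scrambled hairpin against GFP (left) and the Dnmt3a hairpin against GFP (right), which share the GFP libraries, with colours for genes called at an adjusted p under 0.05. The horizontal axes differ: Kdm3a, Kdm4b and Hdac9 are called lower on the left and higher on the right, and Kdm5a is called on the right alone.

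Some JmjC demethylases, Kdm3a and Kdm4b among them, are known to be induced at low oxygen, and a list of other genes of that response moved between the groups. Summed over 7 genes measured of a list of 8, the level was 3648 to 3703 CPM in GFP, 4126 to 4173 in Dnmt3a, 2022 to 2105 in shScr and 5179.6 to 5268 in shDnmt3a. This sum was lowest in shScr and highest in shDnmt3a. The mean levels of Kdm3a, Kdm4b, Kdm3b, Kdm4d, Hdac9 and Sirt6 were lowest and highest in the same groups. The other genes had other orders, with Kdm4c lowest in shDnmt3a and Kdm6b highest in GFP. On knock-down all 7 were called higher, with a median log2 fold change of 1.59, and in shScr against GFP all 7 were called lower, with a median of -1.02. On overexpression 3 were higher and 1 lower, with a median of 0.05. The sources used here give no oxygen level for the cultures, and the part of this response in the values of Kdm3a, Kdm4b and the other genes was not tested.

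Other genes of chromatin and NAD metabolism, in 5 lists with 134 measured genes, were read from the same fits. On overexpression, 10 were higher and 30 lower, 7.46% and 22.4% of them, with a median log2 fold change of -0.06 over the 130 tested. On knock-down, 42 were higher and 22 lower, 31.3% and 16.4%, with a median of 0.03. This balance turned with the control. Against GFP, 31 were higher and 40 lower in shDnmt3a, 23.1% and 29.9%, with a median of -0.02, and 21 were higher and 46 lower in shScr, 15.7% and 34.3%. Over all features tested, 14.3% were higher and 12.9% lower on overexpression, and 23.3% and 22.5% on knock-down. Against GFP, the shares over all features were 23.6% and 22.8% in shDnmt3a and 23.7% and 22.8% in shScr. The medians over all features on overexpression and knock-down are those given above, and no test set the lists against other genes.

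Of the 18 histone acetyltransferase genes, 1 was higher and 6 lower on overexpression, 5.56% and 33.3%, against 14.3% and 12.9% of all features. The paralogous coactivators Crebbp and Ep300 fell there by 0.25 (SE 0.046, edgeR adjusted p = 5.73e-05) and 0.24 (SE 0.050, edgeR adjusted p = 0.000314). On knock-down 6 were higher and 3 lower, 33.3% and 16.7%, against 23.3% and 22.5% of all features. Among them, Crebbp rose from 58.7 ± 3.91 to 79.8 ± 8.27 CPM (SD, n = 3). Its GFP level, 76.5 ± 5.63 CPM, was near that of shDnmt3a and above that of shScr. Ing5, a subunit of acetyltransferase complexes, had a log2 fold change of -0.29 (SE 0.063, edgeR adjusted p = 0.000922). The balance of the acetyltransferases turned with the control: against GFP, 3 were higher and 9 lower in shDnmt3a, and 0 were higher and 8 lower in shScr. Of 38 histone methyltransferase genes, 1 was higher and 10 lower on overexpression, 2.63% and 26.3%. The H3K4 enzyme Mll1 stood at -0.32 (SE 0.054, edgeR adjusted p = 1.73e-05) and the H3K36 enzyme Whsc1l1 at -0.28 (SE 0.048, edgeR adjusted p = 2.91e-05). On knock-down 7 were higher and 6 lower, 18.4% and 15.8%. Ezh2, the H3K27 enzyme of Polycomb, stood at 0.55 (SE 0.064, edgeR adjusted p = 7.91e-07) and Smyd1 at 0.65 (SE 0.13, edgeR adjusted p = 0.000315). Against GFP, 7 of the methyltransferases were higher and 16 lower in shDnmt3a, and 4 were higher and 17 lower in shScr.

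Of the 45 corepressor subunits, the partners of the HDACs, 22 were higher and 3 lower on knock-down, with a median log2 fold change of 0.10. These are 48.9% and 6.67% of them, against 23.3% and 22.5% of all features. Against GFP, 11 of the 45 were higher and 10 lower in shDnmt3a, 24.4% and 22.2%. In shScr against GFP, 7 were higher and 16 lower, 15.6% and 35.6%. Rcor2, a CoREST scaffold, rose from 33.7 ± 2.09 to 56.1 ± 1.79 CPM (SD, n = 3), a log2 fold change of 0.74 (SE 0.051, edgeR adjusted p = 6.29e-10). Phf21a, a CoREST subunit that binds unmethylated H3K4, rose by 0.43 (SE 0.040, edgeR adjusted p = 3.65e-08). On overexpression 3 were higher and 6 lower, 6.67% and 13.3%. Chd5, a NuRD remodeller, stood at -1.03 (SE 0.17, edgeR adjusted p = 1.12e-05) and Rest, a repressor that recruits CoREST and Sin3, at -0.21 (SE 0.039, edgeR adjusted p = 7.25e-05). Chd5 was low, with 2.95 ± 0.235 CPM in GFP and 1.43 ± 0.188 CPM in Dnmt3a (SD, n = 3).

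Of the 12 other JmjC genes, 1 was higher and 4 lower on overexpression, 8.33% and 33.3%. On knock-down 4 were higher and 2 lower, 33.3% and 16.7%. Against GFP, 3 of these genes were higher and 2 lower in shDnmt3a, and 2 were higher and 4 lower in shScr. Hr, a JmjC corepressor of nuclear receptors, was higher on overexpression and on knock-down, by 0.18 (SE 0.048, edgeR adjusted p = 0.00412) and 0.68 (SE 0.039, edgeR adjusted p = 3.2e-11). Jhdm1d, a demethylase of H3K9 and H3K27, fell by 0.19 on overexpression (SE 0.043, edgeR adjusted p = 0.00102), and Phf8, a demethylase of H3K9, rose by 0.50 on knock-down (SE 0.063, edgeR adjusted p = 2.49e-06). Of the 21 genes listed for the metabolism of NAD, the sirtuins' cosubstrate, 4 were higher and 4 lower on overexpression, 19% in each direction. Over all features these shares were 14.3% and 12.9%. On knock-down 3 were higher and 8 lower, 14.3% and 38.1%, against 23.3% and 22.5% of all features. This balance turned with the control: against GFP, 7 were higher and 3 lower in shDnmt3a, and 8 were higher and 1 lower in shScr. Parp14, an ADP-ribosyltransferase, fell on overexpression and on knock-down, by 0.36 (SE 0.046, edgeR adjusted p = 1.99e-07) and 0.61 (SE 0.036, edgeR adjusted p = 4.71e-11). Nadk, the NAD kinase, rose by 0.18 on overexpression (SE 0.040, edgeR adjusted p = 0.000724), and Nnmt, which methylates the sirtuin product nicotinamide, fell by 0.56 on knock-down (SE 0.051, edgeR adjusted p = 3.48e-08).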

How the data were processed

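RNA was taken from 12 samples of 3T3-L1 adipocytes, depleted of ribosomal RNA with Ribo-Zero and prepared with TruSeq RNA v2 for the HiSeq2500. Per the labels' processing notes and the study's methods, the authors used bcl2fastq (2.17.1.14), aligned reads to mm9 with TopHat2 (2.0.14), used Picard (2.2.4) and SAMtools (0.1.19), and counted with featureCounts (1.4.6) over mm9 transcripts edited so that few of them overlap. The authors deposited raw counts for each feature, without normalization. Their edgeR version is not named in the sources used here. The notes name a virus contact of 2 days.

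Groups were taken from the sample labels. Counts were scaled by TMM and filtered by filterByExpr (minimum count 10), and each comparison was tested across all features with edgeR's quasi-likelihood test (edgeR 4.0.16, limma 3.58.1, R 4.3.3) with Benjamini-Hochberg adjustment, calling at an adjusted p under 0.05. The overexpression and knock-down comparisons each used their 6 libraries, and both comparisons of hairpin groups with GFP used 1 fit of 12. Standard errors were the log2 fold change over the root of F. CPM is TMM-scaled over 12 libraries, and RPKM is CPM per 1000 bases of feature length. Totals of 29084732 to 47341091 counts limit the precision of genes with few counts. The chi-square between replicates, divided by its degrees of freedom, was 2.44 to 10.1, so no pair agreed within sampling noise.

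The genes and lists were chosen with earlier results of these data known. Values of all libraries were given for the 6 genes with the smallest p on overexpression and on knock-down, the 4 with the smallest p between the controls, and those called in opposite directions, with other genes given where their class was described. Of each list of other chromatin genes, the 2 with the smallest p in each comparison were named. Alternatives were RLE scaling, DESeq2 (1.42.0), no filter, a filter of 1 CPM in 3 libraries, a replicate block, another set of libraries in the fit, an adjusted p under 0.01, features summed by symbol and leaving out each library. The comparison of shDnmt3a with GFP and its alternatives were chosen after seeing the data. Promoters came from RefSeq (GRCm38.p6) and gene positions from GENCODE vM1.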

Additional observations from a re-analysis of the deposited data

How the results depend on the processing

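No call changed direction under any alternative run. With a filter of 1 CPM in 3 libraries, 6 of the 29 genes were lower on overexpression against 3, as Sirt1, Hdac9 and Kdm3b were added, and Sirt2 was lost among those higher; Kdm4d was not tested under it. At an adjusted p under 0.01, 1 gene was higher and 0 lower on overexpression (edgeR's quasi-likelihood test), where 9 and 7 had an unadjusted p under 0.05 and DESeq2 called 1 and 2 at 0.01. At the same threshold the other chromatin genes on overexpression came to 6 higher and 16 lower against 10 and 30, and 5 of the 29 genes were higher in shScr against GFP against 9. When 1 library was left out, the genes called higher on overexpression numbered 1 to 3 and lower 1 to 4, with 1 higher without Dnmt3a replicate 3, and 1 lower without GFP replicate 1 and without Dnmt3a replicate 1. On knock-down they were 8 to 9 and 5 to 7, in shScr against GFP 6 to 9 and 8 to 11, and in shDnmt3a against GFP 4 to 6 and 3 to 4. Other chromatin genes on overexpression were 7 to 12 higher and 20 to 29 lower, and on knock-down 33 to 38 and 17 to 26. DESeq2 lost Sirt2 on overexpression, Hdac3 on knock-down, and Kdm4d and Sirt5 in shScr against GFP. The cause of these losses was not tested.

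Libraries of the same number did not deviate together, with correlations from -0.058 to 0.01, so the replicate numbers are taken as names. With the replicate block, 2 of the 29 genes were higher and 4 lower on overexpression (Sirt2 lost, Hdac9 added), and on knock-down Hdac3 and Kdm2a lost their calls. Depth limits Kdm4d most, at 5 to 23 counts per library.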
